A study of Mus musculus with 3 samples.

Results

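Lysophosphatidic acid (LPA) and sphingosine 1-phosphate (S1P) are small signalling lipids, and the genes of their receptors were examined for NKX2-5 binding in the embryonic heart. The 8 genes were chosen by name, namely Lpar1, Lpar2, Lpar3, Lpar4 and Lpar6 for LPA and S1pr1, S1pr2 and S1pr3 for S1P, of 22350 protein-coding genes in all. The choice was made with earlier results of these data known. An enriched region, hereafter a peak, was assigned to a gene when its midpoint lay within 100 kb of the gene body. This gave 8 of the 4418 peaks in library S1 and 8 of the 5441 peaks in library S4. Of these peaks, 5 in each library overlapped a peak of the other library by at least 1 bp, and the pairs made 5 of the 2546 shared regions of the series.

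The study mapped NKX2-5, a homeodomain transcription factor of the cardiac lineage, by ChIP-seq on hearts of Parkes mouse embryos at E11.5. The samples comprised 2 NKX2-5 ChIP libraries, S1 and S4, and 1 Input library of the same stage, tissue and strain, which was not analysed here. The score of a peak was given by the authors' peak caller and rises with the evidence for enrichment over the background used for that library. Whole hearts were used, so a peak cannot be assigned to a cell type. The study treats S1 and S4 as separate experiments, but the number of embryos in each is not given in the sources used here, and neither is the depth, since the lists hold peaks without reads. Binding lists carry no marker expression against which the tissue label could be checked. With 1 condition and 2 libraries no test between groups was possible, and scores were ranked within each list.

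All of these receptors are G protein-coupled receptors that sense extracellular lipid. Lpar1, Lpar2, Lpar3 and the S1P receptors belong to the EDG family, whereas Lpar4 and Lpar6 belong to a separate branch related to P2Y purinergic receptors. S1P signalling through S1pr1 is needed for the coating of embryonic vessels by mural cells, and LPA signalling through Lpar3 is known for its role in the implantation of the embryo. Lpar3 is also the only receptor gene among the loci that the study names for ChIP of MEIS and NKX2-5 in the anterior heart field and heart. MEIS binding was enriched in the anterior heart field and NKX2-5 binding in the heart. The study selected the locus among NKX2-5 peaks that hold its de novo motif, a hybrid of NKX2-5 and MEIS1 sites. The scores and motif matches of Lpar3 below are therefore a description. The main text of the study gives no coordinates for the tested region, so which Lpar3 peak it was cannot be stated here.

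The sequences that carry the comparison are given first, on the plus strand of NCBIM37 (mm9) unless stated. Capitals mark exact matches to AAGTG, the core of the NKX2-5 site, or TGACA, the core of the MEIS1 site, with the 2 bases before AAGTG included where they complete TNAAGTG, a longer form of the NKX2-5 core. Matches on the opposite strand are printed as CACTT for the NKX2-5 core, and as TGTCA for the MEIS1 core. The first sequence is the part of the highest-scoring Lpar3 region that holds all of its core matches (chr3:145941620-145941919). The second lies within an S1 peak without a partner in the same intron, and holds a match to AAGTGACA, in which both cores overlap (chr3:145939527-145939586). The next surrounds the midpoint of a weak shared region far downstream of S1pr1 (chr3:115322907-115323056). The one after it is a stretch of 100 bp upstream of the S1pr1 start, on the minus strand in the direction of the gene, under an S4 peak (chr3:115418174-115418273). The last is the GC-rich centre of the shared region in the S1pr2 window, which has no core match (chr9:20877789-20877938).
Lpar3, intron: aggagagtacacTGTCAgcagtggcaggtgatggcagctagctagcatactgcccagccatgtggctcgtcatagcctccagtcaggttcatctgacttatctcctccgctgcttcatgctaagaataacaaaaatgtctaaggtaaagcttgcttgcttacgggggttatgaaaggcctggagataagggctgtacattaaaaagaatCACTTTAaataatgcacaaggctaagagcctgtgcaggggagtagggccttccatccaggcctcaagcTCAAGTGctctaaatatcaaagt
Lpar3, S1 peak without a partner: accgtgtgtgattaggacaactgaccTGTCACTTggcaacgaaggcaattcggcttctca
S1pr1, distal region: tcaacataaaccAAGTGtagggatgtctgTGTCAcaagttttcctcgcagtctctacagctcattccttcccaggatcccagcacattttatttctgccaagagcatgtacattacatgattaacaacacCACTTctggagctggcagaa
S1pr1, upstream of the start: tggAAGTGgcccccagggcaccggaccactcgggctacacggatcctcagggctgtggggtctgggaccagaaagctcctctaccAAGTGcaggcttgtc
S1pr2 window, Fdx1l start: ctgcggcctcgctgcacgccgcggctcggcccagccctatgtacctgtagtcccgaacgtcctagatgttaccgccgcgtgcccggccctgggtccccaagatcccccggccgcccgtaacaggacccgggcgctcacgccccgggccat

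Peaks lay near Lpar2, Lpar3, S1pr1 and S1pr2 in both libraries, and near none of Lpar1, Lpar4, Lpar6 and S1pr3 in either. Thus 4 of 8 receptor genes (50%, with a 95% interval of 15.7 to 84.3 by the exact Clopper-Pearson method, which covers counting error only) had an S1 peak, against 38.4% of all protein-coding genes. The same 4 genes had an S4 peak, against 44.7%, and were the 4 with a peak of either library, against 53.0%. They were also the 4 with a shared region, against 24.3% of all genes. All of these background shares lie within the interval, so the counts did not set the receptors apart from other genes. Lpar3 was included with its NKX2-5 binding already reported by the study, so the 8 genes are not a neutral draw. The interval does not cover this choice. Of the 8 peaks in each library, 5 (62.5%, 24.5 to 91.5) had a partner, against 58.9% of all S1 peaks and 47.0% of all S4 peaks.

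**Figure D1:**
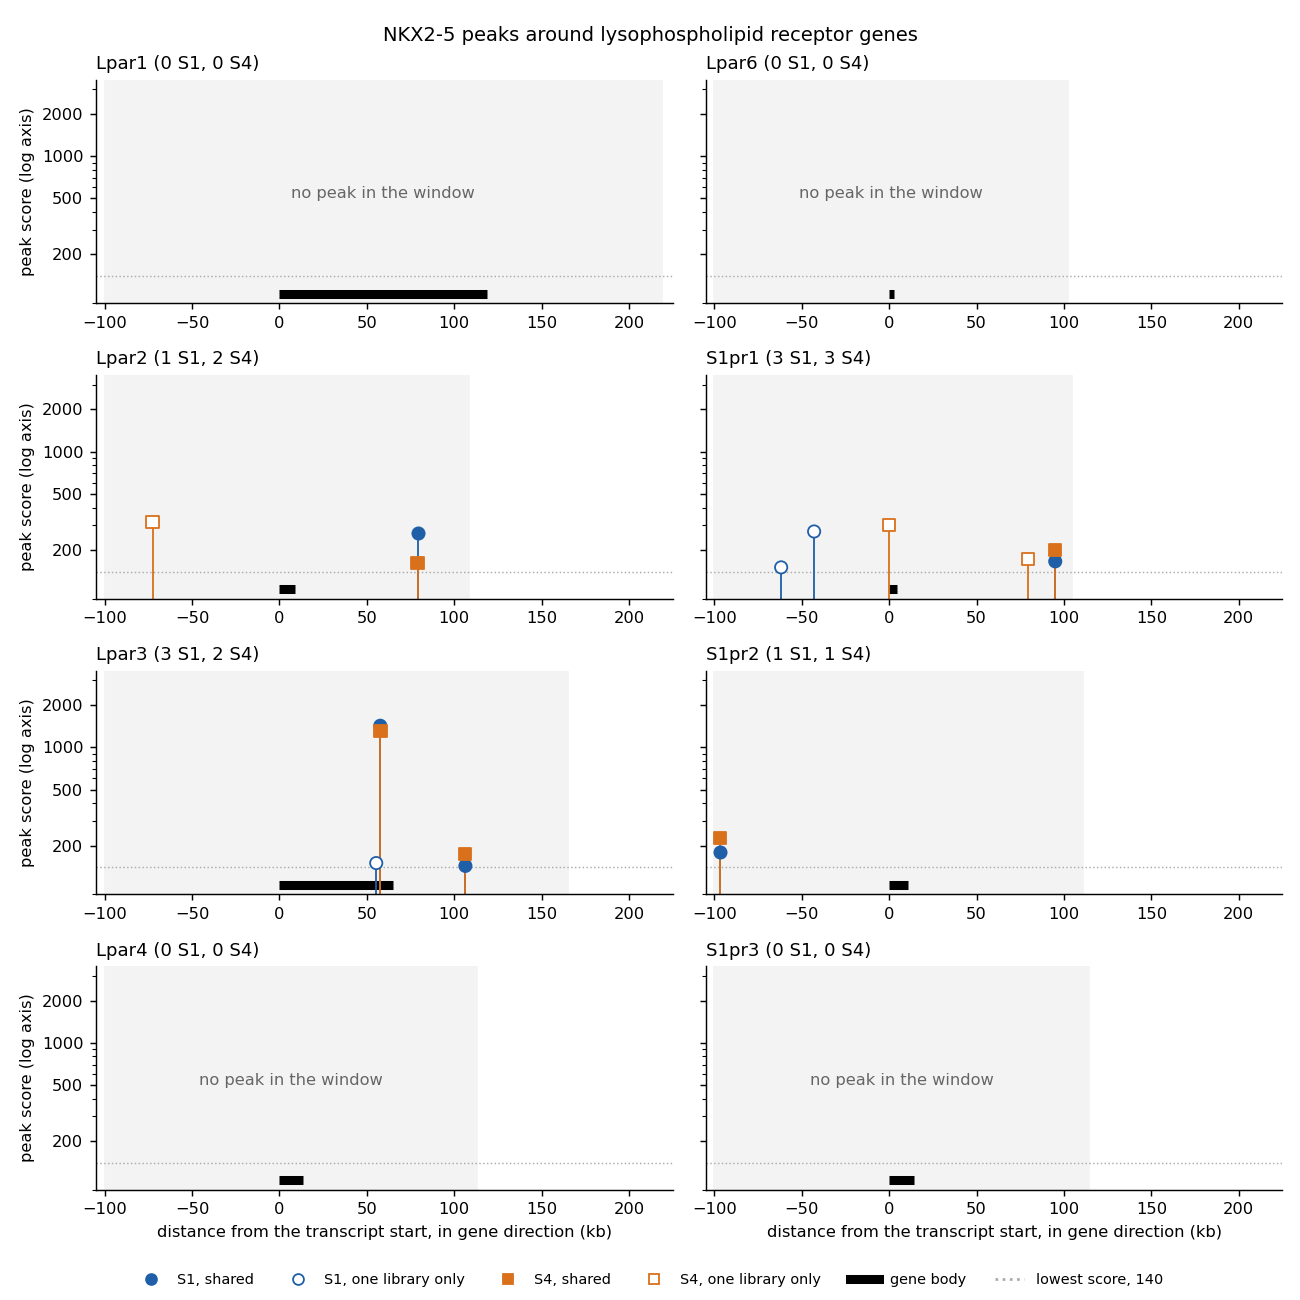
Score (log axis) and position of each NKX2-5 peak around the 8 receptor genes, with the distance in kb from the transcript start in the direction of the gene. Circles are S1 and squares S4, filled symbols are shared, the black bar is the gene body and grey marks the window. The pair of high symbols inside Lpar3 stands above all other peaks, which score at most 316.

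Among the receptor genes, Lpar3 had the highest-scoring peak in each library. The gene lies at chr3:145883925-145949178 on the plus strand, has 3 exons and spans 65.3 kb. Its main peak was at chr3:145941109-145942161 in S1, with a score of 1424, and at chr3:145941046-145942442 in S4, with a score of 1313. The peak ranked 66 of 4418 in S1 and 115 of 5441 in S4, so it lay near the top of both lists. The region is within intron 2, 57.7 kb downstream of the transcript start and 5.47 kb before the next exon, and the Lpar3 start is the nearest coding start. At the other receptor genes the highest score was 271 in S1 and 316 in S4, and both of those peaks lacked a partner.

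Among all 2546 shared regions, ranked by the lower of both scores, the intronic region of Lpar3 was number 62, and 2.44% of regions scored at or above it. Of the 5424 protein-coding genes with a shared region in their window, 178 (3.28%) had a region at or above this score. Genes that lie close together share regions, so these genes are not independent. The shared regions of the other receptors had lower scores of 162 at Lpar2, 166 at S1pr1 and 181 at S1pr2, which ranked 2069, 2012 and 1815 of 2546. All 3 fall under the median lower score of shared regions, 240.

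The libraries placed the Lpar3 region alike. The S1 peak was contained in the S4 peak and covered 75.4% of it, against a median of 70.7% of the joint length over all 2610 overlapping pairs. The midpoints differed by 109 bp, against a median of 81 bp. The log2 ratio of the S4 to the S1 score was -0.12, against a median of 0.16 for shared regions. The score is not scaled between libraries, so the sign of this ratio cannot be told apart from depth. The peak was also wide, with 1053 bp in S1 and 1397 bp in S4, at percentiles 95.8 and 96.0 of its list.

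**Figure D2:**
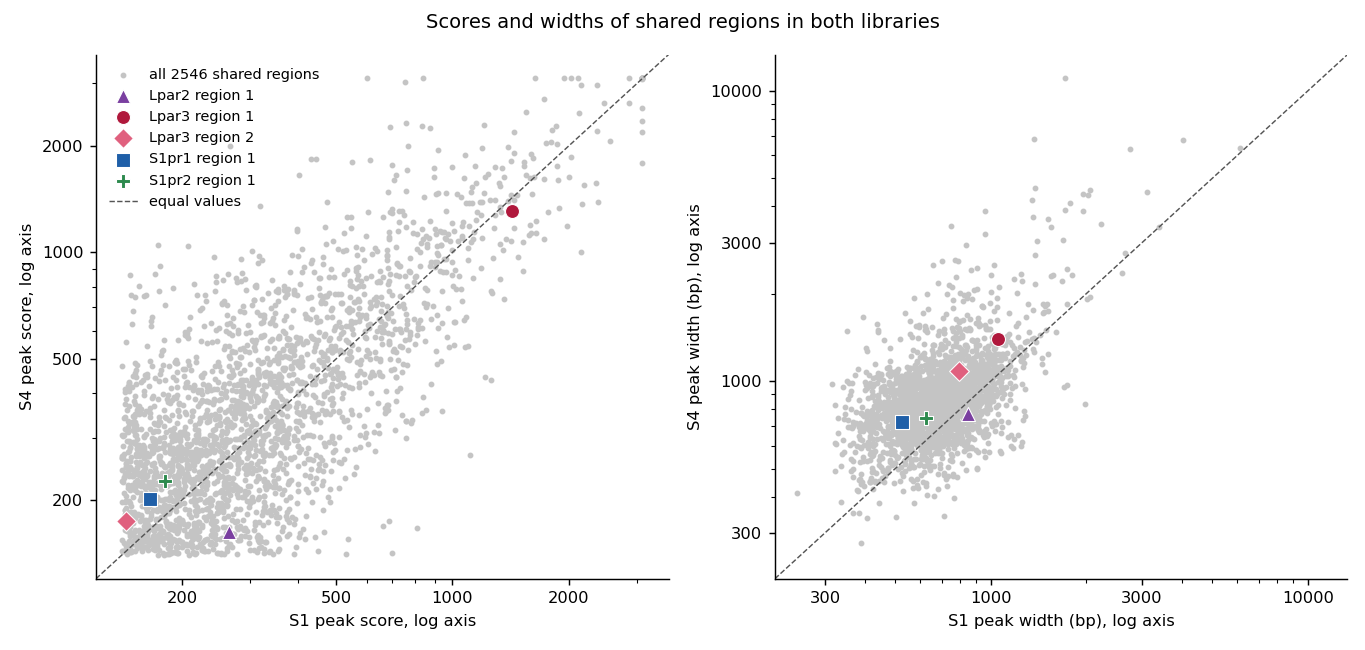
Score (left) and width in bp (right) of the S1 and S4 peaks of all 2546 shared regions, on log axes, with the 5 regions near receptor genes as coloured symbols and equal values as a dashed line. Lpar3 region 1, with scores of 1424 and 1313, lies far up the diagonal. The other regions score at most 264 in S1, at Lpar2, and 226 in S4, at S1pr2.

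The intron held a further, weaker S1 peak at chr3:145939021-145939620, with a score of 149.98 (rank 3892) and a width of 600 bp. It ended 1488 bp before the main peak and had no partner, the nearest S4 peak being 1425 bp away. The second shared region of Lpar3 lay 41.1 kb beyond the end of the gene. Its scores were 143 in S1 (chr3:145989930-145990722) and 174 in S4 (chr3:145989775-145990855). The S1 peak was at percentile 3.70 of the scores of its list, and the S4 peak at percentile 28.7 of its own. Only 74 of the 2546 shared regions had a lower value for the weaker peak of the pair. The weak region nonetheless matched well in position, with midpoints 11 bp apart, although its nearest coding start was that of Ssx2ip, 77.3 kb away.

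With 3 S1 peaks, Lpar3 was among the 6.10% of protein-coding genes with at least 3, and with 2 shared regions among the 6.94% with at least 2. Its 2 S4 peaks placed it among the 20.1% with at least 2 in that list. S1pr1 also had 3 S1 peaks, and its 3 S4 peaks placed it among the 8.74% with at least 3 in that list. The body and window of Lpar3, 265 kb together, exceed the median of 215 kb over all genes, and a longer window can hold more peaks.

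At S1pr1 the peaks were scattered and scored at most 300. In each library 1 of its 3 peaks had a partner, against 58.9% of all S1 peaks and 47.0% of all S4 peaks. With 3 peaks per library, this does not set the gene apart. The gene (chr3:115413351-115417973, minus strand), which encodes the main S1P receptor of endothelium, was the only protein-coding gene in its window. A start of S1pr1 was also the nearest coding start to each of its 6 peaks. A shared region lay 95.0 kb downstream of the start, with a score of 166 in S1 (chr3:115322721-115323244) and 200.79 in S4 (chr3:115322710-115323431). S1 alone had peaks 43.0 kb and 61.8 kb upstream, with scores of 271 (chr3:115460602-115461279) and 150.27 (chr3:115479562-115480039). S4 alone had a peak 79.5 kb downstream with a score of 172 (chr3:115338183-115338761).

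The remaining S4 peak covered the S1pr1 start itself, at chr3:115417469-115418628, with its midpoint 75 bp upstream. Its score was 300 (rank 1670 of 5441), above the median of 183.27 for S4 peaks without a partner, and its width of 1160 bp was at percentile 91.7. S1 had no peak closer than 41973 bp to it. S1pr1 was thereby the only receptor gene with a peak within 1 kb of a transcript start, 1 of 8 in S4 against 5.62% of all protein-coding genes and 0 of 8 in S1 against 4.24%. A count of 0 of 8 allows a share of up to 36.9%. With no read numbers, whether S1 held a weaker signal at this start could not be examined.

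The peaks in the windows of Lpar2 and S1pr2 lay at the starts of other genes. Lpar2 (chr8:72346328-72355001, plus strand), an LPA receptor of the EDG family, has 11 other coding genes in its window. Its shared region had a score of 264 in S1 (chr8:72425193-72426042) and 162 in S4 (chr8:72424989-72425757), 79.1 kb downstream of Lpar2. The middle of the stretch common to the S1 and S4 peaks was 608 bp from a start of Tssk6, a kinase gene of the testis, and 982 bp from one of Ndufa13, which encodes a subunit of respiratory complex I. These peaks matched least in position, with midpoints 244 bp apart and both covering 53.6% of the joint length. A further S4 peak, with a score of 316 (chr8:72273300-72274218) and no partner, lay 102 bp from the start of Zfp963.

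S1pr2 (chr9:20770396-20781237, minus strand), an S1P receptor that in zebrafish acts in the migration of heart precursors, has 12 other coding genes in its window. Its shared region lay 96.6 kb upstream, near the edge of the window, with a score of 181 in S1 (chr9:20877546-20878172) and 226 in S4 (chr9:20877556-20878303). The midpoint of the shared stretch was 94 bp from the start of Fdx1l, a mitochondrial ferredoxin gene. The peaks of Lpar2 and S1pr2 each fell within the windows of at least 9 coding genes, whereas the intronic region of Lpar3 fell within those of 2 and the peaks of S1pr1 in that of S1pr1 alone.

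The receptors without a peak differed in how far the nearest binding lay. At Lpar6 (chr14:73637698-73640165), which is nested in the Rb1 gene, the nearest S4 peak was 107 kb from the gene body with a score of 171. The nearest S1 peak was 197 kb away with a score of 996, was shared, and lay in an intron of Cysltr2, a leukotriene receptor gene. At Lpar1 (chr4:58448127-58566770) the nearest peak was a shared one 224 kb from the gene body, scored 192 by S1 and 296 by S4, and its nearest start was that of Svep1. At S1pr3 (chr13:51503987-51518166) the nearest S4 peak was 292 kb away and the nearest S1 peak 655 kb away. At Lpar4 (chrX:104115964-104129239) the distances were 992 kb in S1 and 1261 kb in S4, on a chromosome that held only 33 peaks of S1 and 43 of S4. The nearest peaks of S1pr3 and Lpar4 had no partner.

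**Figure D3:**
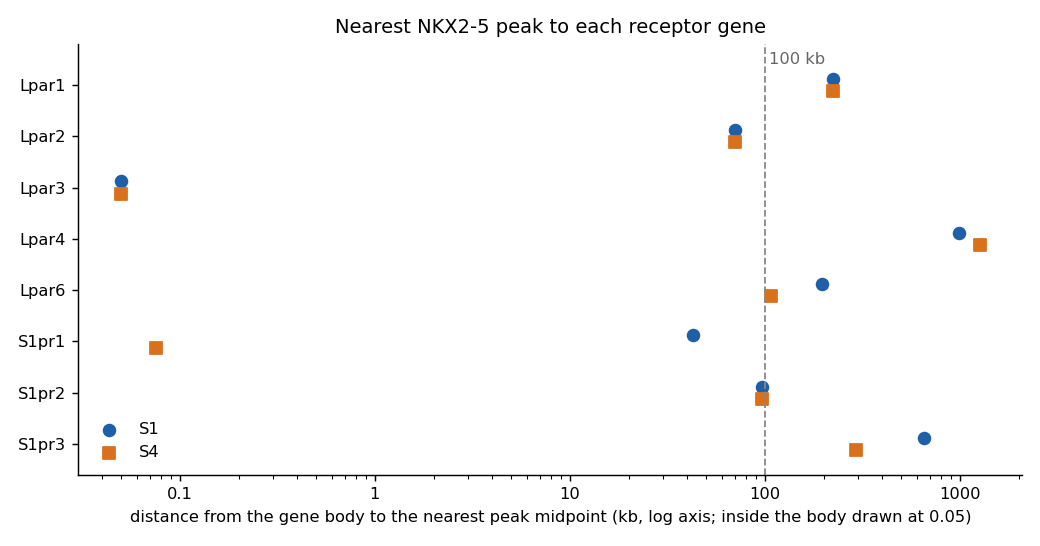
Distance in kb (log axis) from each receptor gene body to the nearest peak midpoint in S1 (circles) and S4 (squares), with peaks inside the body drawn at the left and the dashed line at 100 kb. Both libraries have a peak inside Lpar3 and the S4 peak at S1pr1 is 0.075 kb from the body, whereas Lpar1, Lpar4, Lpar6 and S1pr3 lie to the right of the line.

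The study described an NKX2-5 site and a hybrid site that overlaps a MEIS1 site, so exact matches were counted on both strands. The main window reached 100 bp to the left and right of the middle of each shared stretch, as the lists used here give no summits. In the intronic Lpar3 region, shown first among the sequences, this window held 1 TGACA, centred within 1 bp of the middle, and no AAGTG. Over all 2546 shared regions, 64.3% of such windows held TGACA and 64.02% held AAGTG, against 40.1% and 39.4% of 5090 windows 2 kb to either side. In the whole stretch of 1053 bp there were 2 AAGTG, 196 bp and 266 bp downstream of the midpoint, and both were part of TNAAGTG. This longer core occurs in 55.2% of all shared stretches and in 32.4% of the windows around midpoints. Neither of the exact hybrid forms searched here, AAGTGACA and the spaced pair GTGNTGACA, was found in the stretch, and a hybrid site with other letters would not be counted. In comparison, these forms occur in 5.42% and 15.5% of all shared stretches. These stretches differ in length, and AAGTG matches include those within TNAAGTG and AAGTGACA just as TGACA matches include those within AAGTGACA and GTGNTGACA.

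Matches were also counted in other regions. The distal S1pr1 region had 2 AAGTG and 4 TGACA in 524 bp, or 3.82 and 7.63 per kb against means of 3.82 and 4.05 per kb over all shared stretches. The intronic Lpar3 region had 1.899 and 0.9497 per kb. The regions at the starts of Tssk6 and Fdx1l held 1 AAGTG each and no TGACA. In the S1 peak without a partner in the Lpar3 intron, AAGTGACA lay 237 bp from the midpoint. The S1 peak 61.8 kb upstream of S1pr1, with a score of 150.27, held 4 AAGTG and 2 TGACA in 478 bp, or 8.37 AAGTG per kb. This was the highest AAGTG density among the peaks without a partner near receptor genes. The others ranged from 0 per kb, 79.5 kb downstream of S1pr1, to 4.35 per kb at the Zfp963 start. The higher-scoring S1 peak 43.0 kb upstream of S1pr1 had 2.95 per kb. Under the S4 peak at the S1pr1 start there were 5 AAGTG, of which 2 lay 213 bp and 295 bp upstream of the start, as shown in the sequence above, and 1 was part of TNAAGTG. An exact match is not a measured binding site, and the absence of one says only that these letters are not in the stretch.

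**Figure D4:**
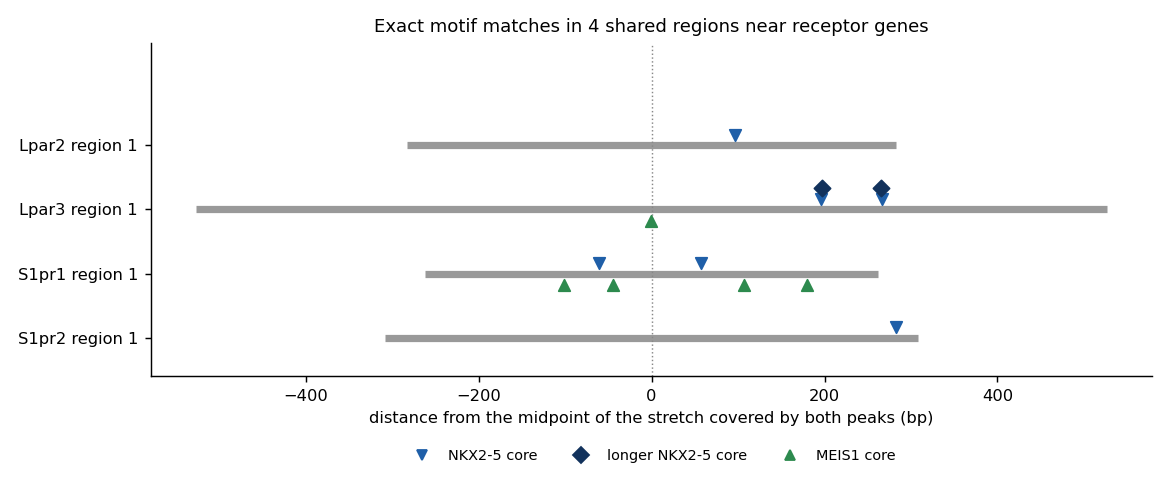
Positions in bp of exact matches to the NKX2-5 core, the longer NKX2-5 core and the MEIS1 core relative to the middle of the stretch that the S1 and S4 peaks have in common (grey bars), for 4 of the shared regions near receptor genes. In Lpar3 region 1 the MEIS1 core is at the midpoint and the NKX2-5 cores lie 196 bp and 266 bp to its right, and the regions of Lpar2 and S1pr2 hold 1 NKX2-5 core each.

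The shared regions at gene starts were rich in GC. In the same windows of 100 bp to either side, GC content was 70.15% at the Fdx1l start in the S1pr2 window and 63.2% at the Tssk6 start in the Lpar2 window, higher than in 99.6% and 96.4% of all shared regions, whose median was 49.75%. The intronic Lpar3 region had 56.2%, higher than 85.3% of shared regions, although it lies far from any start. GC content was 43.8% in the distal S1pr1 region. Among S4 peaks without a partner, it was 54.2% at the S1pr1 start and 66.2% at the Zfp963 start. These values were higher than in 77.1% and 98.1% of shared regions. CpG dinucleotides numbered 8.59 and 6.02 per 100 bases of the whole stretch at the starts of Fdx1l and Tssk6, against 1.425 in the intronic Lpar3 region.

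The choice of window bore on the count of receptor genes with a shared region more than on the Lpar3 region. With a window of 50 kb the count fell from 4 to 1, Lpar3 alone, against 15.7% of all protein-coding genes. When peaks scoring under 200 were left out, it was again only Lpar3, also against 15.7%. When a peak counted only for the gene with the nearest coding start, Lpar3 and S1pr1 remained, 2 of 8 against 7.72%. A window of 200 kb added Lpar6 and gave 5 of 8 against 37.7%.

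**Figure D5:**
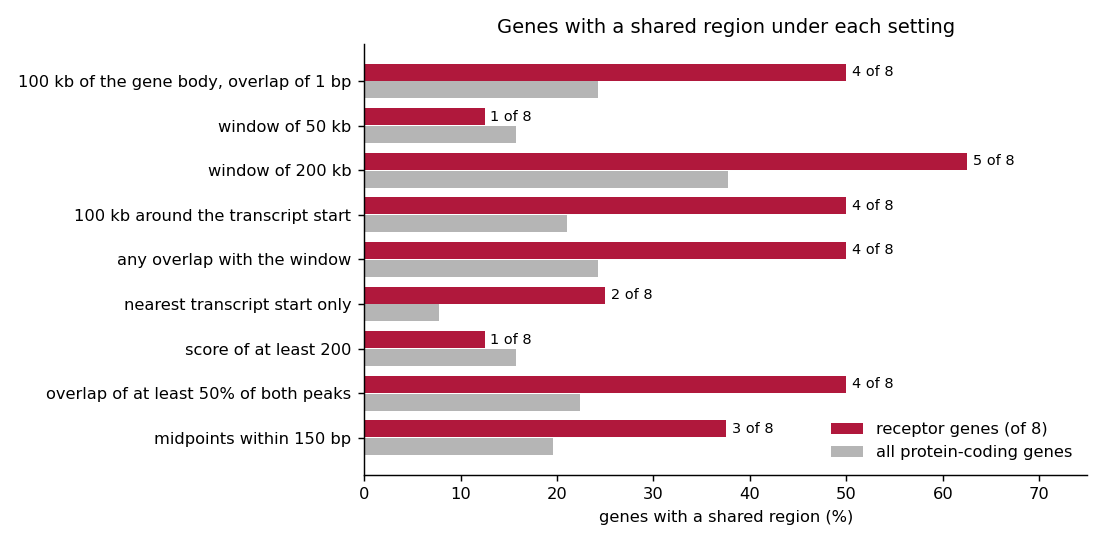
Percent of the 8 receptor genes (red) and of all 22350 protein-coding genes (grey) with a shared region under the main setting, in the first row, and 8 alternatives. Red bars range from 1 of 8, below the grey bar of 15.7%, with a window of 50 kb or a score of at least 200, to 5 of 8 with a window of 200 kb.

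The rest of the pathway was examined by a list of 32 genes, all found in the annotation, that includes further receptors, enzymes that make or remove the lipids, exporters and G proteins. Of these, 16 (50%) had an S1 peak, 18 (56.25%) an S4 peak and 11 (34.4%) a shared region in the window, against 38.4%, 44.7% and 24.3% of all protein-coding genes. Among the 11 genes were the receptors Lpar5 and S1pr5, the phospholipase Pla1a, the S1P exporter Spns2, the lipid phosphatases Ppap2b, Sgpp1 and Sgpp2, and the G protein genes Gna13 and Gnai2. By role, a shared region lay near 2 of 6 other receptors, 1 of 5 makers, 1 of 2 exporters, 3 of 6 removal genes and 2 of 7 G proteins.

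As at Lpar2 and S1pr2, most of these regions lay nearest to the start of another gene. The highest scores were at Gnai2, which encodes an inhibitory G protein alpha subunit, with 2559 in S1 and 2059 in S4 in an intron of Gnai2 itself, number 19 of the 2546 shared regions by the lower score. The nearest coding start was that of Sema3b, 10.3 kb away. The higher-scoring region in the Pla1a window scored 1237 and 1669 and was the promoter of Popdc2. The higher-scoring region in the Lpar5 window scored 803 and 852 and lay at the start of Gapdh, a highly transcribed gene. At Ppap2b, which encodes a phosphatase that degrades LPA and S1P, the scores were 618 and 706 in an intron of Prkaa2, 55.8 kb upstream. Scores were 345 and 338 in an intron of Smtnl2 for Spns2, and 330 and 216 in an intron of Pde4a for S1pr5. The region of Gna13, 19.1 kb upstream of its start, had the listed gene as the nearest start.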

How the data were processed

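NKX2-5 ChIP-seq libraries of E11.5 hearts were sequenced on a Genome Analyzer IIx, aligned to mm9 with BOWTIE and analysed with MACS 1.4 according to the methods of the study, and the submitters' processing notes also name CASAVA 1.4. Settings, the BOWTIE version and the use of the Input as control are not given in the sources used here. The authors deposited 1 list per ChIP library, not pooled, with start and end in bp and a score for each peak. In the output of this caller the score is -10 log10 of a p-value computed for that library. Groups were taken from the labels.

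Positions were compared with GENCODE M1 protein-coding genes of NCBIM37, the assembly of mm9, and no peak (0) lay outside its chromosomes. Coordinates are counted from 1. A promoter was within 1 kb of a transcript start. Every peak in the 8 windows is described, and pathway genes with a shared region are named, with values for the 8 highest lower scores, except that some items are not reported here. Members, lists and motifs were chosen with earlier results of these data known, TNAAGTG and GTGNTGACA among them. No test was made. Intervals for shares were computed by the exact Clopper-Pearson method (confidence level, 0.95). The alternatives were windows of 50 kb and 200 kb, distance from the transcript start, any overlap with the window, the nearest start only, a score of at least 200, partners required to cover 50% of each other or to have midpoints no more than 150 bp apart, each library alone and other motif windows. As a check of the code on simulated data, 200 of 200 planted peaks were assigned to their gene, 106 of 106 partners were recovered and 1000 of 1000 planted motifs were found. All were planted within the limits of the rules, so this checks the code only and not how well the rules suit real peaks. Python 3.11.15, numpy 2.4.6, scipy 1.17.1, pandas 2.3.3, pysam 0.24.0 and matplotlib 3.10.9 were used.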

Additional observations from a re-analysis of the deposited data

How the results depend on the processing

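Of 94 alternative values, 63 left the value in place, a count within 1.5-fold or a share within its interval, and 31 moved it. No value had a test. With a window of 50 kb, receptor genes with a peak fell from 4 to 2 in S1, in S4 and in either library, those with a shared region to 1, the mean number of peaks from 8 to 3.5, shared regions from 5 to 2, pathway genes from 11 to 6 and all protein-coding genes with a shared region from 5424 to 3506. With 200 kb, the mean number of peaks rose to 16.5, shared regions to 11, pathway genes to 17 and all genes to 8420. Counting a peak only for the nearest start gave 2 receptor genes in each of these counts, 4.5 peaks, 2 shared regions, 1 region near Lpar3, 2 pathway genes and 1725 genes. With a score of at least 200, there were 4 peaks in the mean, 1 receptor gene with 1 shared region, which was that of Lpar3, 7 pathway genes and 3506 genes, and the share of S4 peaks with a partner fell from 62.5% to 20%. With that score limit, the share of S1 peaks with a partner fell from 62.5% to 33.3%. It counts as in place only because its interval, 24.5 to 91.5, is wide. Fewer or more genes follow from these settings by construction. Measured from the transcript start, the count of regions near Lpar3 fell from 2 to 1. The whole stretch in place of 100 bp on each side raised AAGTG and TNAAGTG matches in the Lpar3 region from 0 to 2. S1 or S4 alone gave 4 receptor genes and 8 peaks each. No paired analysis was possible because there is 1 group with peak lists. The depth of the libraries is unknown and limits every statement that a peak was missing from a list, since both lists start at a minimum score.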
